A study of Saccharomyces cerevisiae with 2 samples.

Results

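The transcripts described here are 8 nuclear messenger RNAs for proteins of yeast mitochondria, chosen by name: ATP1, ATP2 and ATP3 of the ATP synthase, the carriers PET9 and MIR1, the porin POR1, COR1 of respiratory complex III and SDH1 of complex II. They are 8 of the 6002 annotated nuclear protein-coding genes, and were chosen with earlier results of these data known. Contacts of the Saccharomyces cerevisiae helicase Dbp2p with RNA were mapped by iCLIP. In this assay UV light links a protein covalently to the RNA at its surface, and the cDNA made from purified complexes ends near the linked nucleotide. The 2 samples are replicates of a single group, whole cells of the MATa strain BTY140, whose DBP2-HTBH:kanMX6 allele adds a histidine-biotin tag used for the affinity pull-down, and which also carries the deletions his3Δ1, leu2Δ0, met15Δ0 and ura3Δ0. The cells were grown in YPD, a rich glucose medium, at 30 °C to an OD600 of about 1.0 and irradiated before harvest. Libraries of untagged cells or of input RNA were not analysed here. Positions therefore could not be set against a background, and the design has no contrast between conditions to test.

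The ATP synthase of the inner mitochondrial membrane makes ATP from ADP and phosphate, driven by the proton gradient that the respiratory chain builds. Its ADP comes in through the ADP/ATP carrier and its phosphate through the phosphate carrier, while porin lets small molecules cross the outer membrane. All 8 proteins are encoded in the nucleus, made on cytosolic ribosomes and imported. In cells grown on glucose, yeast ferments and many respiratory genes are held at a low level. DEAD-box helicases such as Dbp2p unwind short RNA duplexes and remodel RNA-protein complexes.

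Each replicate is a table of single nucleotides, with a gene name and the fraction of that gene's signal at the nucleotide. The fractions of a gene sum to 1, so the number of reads behind a gene or a position is unknown and signal shares can be compared only within a gene. Replicate 1 held 8666 positions and replicate 2 held 18088, and within protein-coding genes there were 6279 and 16441, a ratio of 2.62. The replicates also differed in texture. Of the positions in protein-coding genes, 16.7% had another position of the same gene within 5 nt in replicate 1 and 53.8% in replicate 2. Neighbouring positions of that kind are called a run below. Nothing in the labels says that the replicates came from separate cultures, so the spread given is that between these 2 samples.

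The 8 genes together had 18 positions in replicate 1 and 46 in replicate 2, a mean of 32 ± 19.8 (SD, n = 2). Their pooled ratio of 2.56 was close to the 2.62 of all protein-coding genes, but it was 2.17 without PET9. Among the genes listed in both replicates, the ratio ranged from 0.667 in POR1 to 5 in SDH1. Of the 8 genes, 7 were listed in replicate 1, where 45.0% of all protein-coding genes were, and all 8 in replicate 2, where 63.2% were. In both replicates 7 were listed, against 37.4% of protein-coding genes, and ATP2, POR1 and COR1 had at least 2 positions in both, 3 of 8 against 16.6%. Because the 8 genes were chosen with earlier results of these data known, nothing is read from these differences. The median gene of the 8 had 1 position in replicate 1 and 4 in replicate 2, and the median over all protein-coding genes, absent ones included, was 0 and 1. The number of positions depends on a gene's RNA level, on its length and on filters that are not given, and no RNA level was used here.

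**Figure D1:**
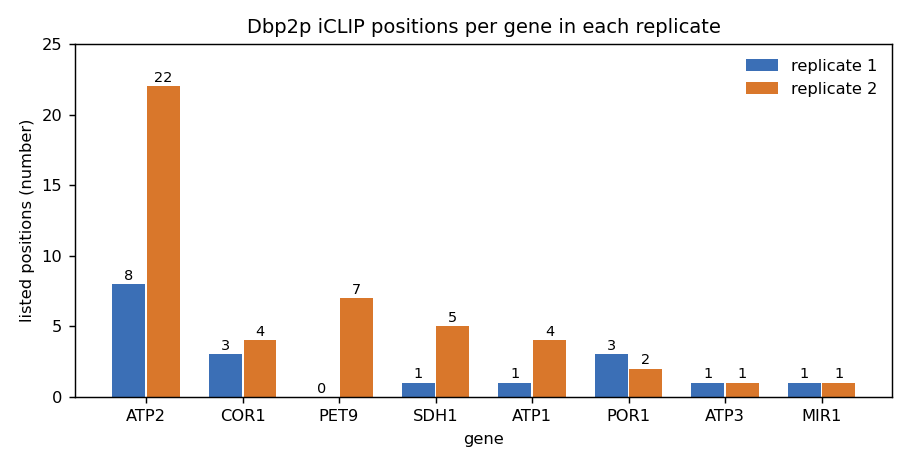
Number of listed positions (vertical axis) in each of the 8 genes (horizontal axis, ordered by mean), with a bar for each replicate. ATP2 stands highest in both replicates, with 8 and 22, and PET9 has 0 in replicate 1 and 7 in replicate 2.

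ATP2, which encodes the catalytic beta subunit of the ATP synthase (YJR121W, chromosome X, 647607 to 649142, plus strand), had the most positions of the 8 in both replicates. It had 8 positions in replicate 1 and 22 in replicate 2, a mean of 15.0 ± 9.90 (SD, n = 2). That made 44.4% and 47.8% of all positions in the 8 genes. Of all protein-coding genes, 98.5% had fewer positions in replicate 1 and 99.1% in replicate 2. Its lead is also a lead per length, with 3.91 and 10.4 positions per kilobase between start and stop codon, above each of the other 7 genes in both replicates. In replicate 1 that lead was narrow: POR1 had 3.52 per kilobase, from 3 frame positions beside 6 in ATP2. With each run counted as 1, ATP2 kept 7 and 9 separate places, and the mean of 15.0 became 8.

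The place of the ATP2 signal was not the same in the replicates. In replicate 1 the strongest nucleotide was an A at coordinate 648145, nucleotide 539 of the gene and in codon 180 of 511, with 57.9% of the ATP2 signal. The next nucleotide, 540, held 5.26%, and the other frame positions at nucleotides 113, 392, 470 and 726 held 5.26% to 10.5% each. In replicate 2 the strongest nucleotide was an A at coordinate 648713, nucleotide 1107 and in codon 369, with 17.5%. It opened a run of 5 positions over nucleotides 1107 to 1115 that held 38.1%. A single position 10 nt before it, at nucleotide 1097, added 6.19%. Further frame runs of 4 positions each covered nucleotides 51 to 55, with 22.7% of the signal, and 1423 to 1427, with 14.4%. Replicate 1 had no position in or next to any of these runs: its closest was nucleotide 113, which lay 58 nt from nucleotide 55. Anywhere in ATP2, the nearest positions of the replicates lay 55 nt apart, both past the stop codon.

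**Figure D2:**
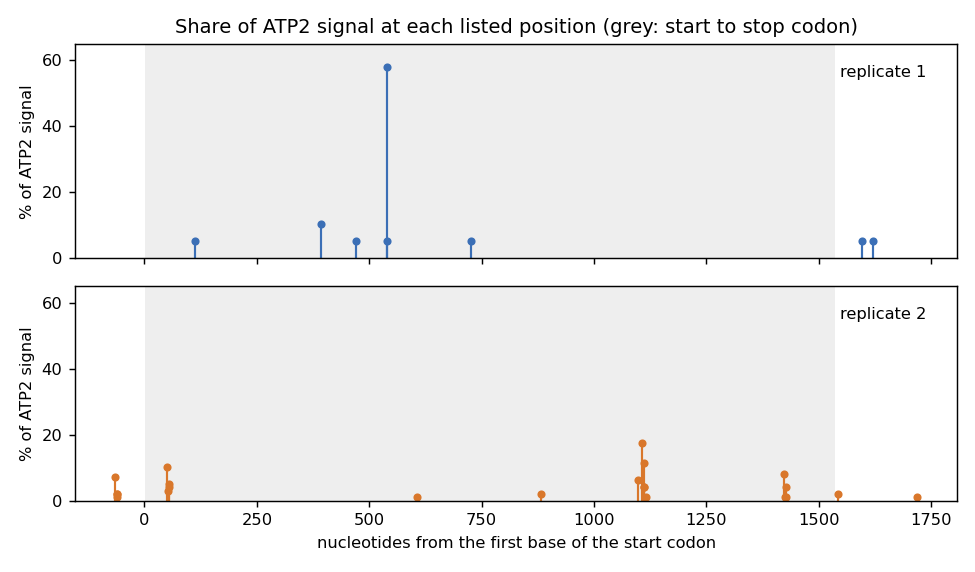
Percent of the ATP2 signal (vertical axis) at each listed position against its distance in nucleotides from the first base of the start codon (horizontal axis), replicate 1 above and replicate 2 below, with start to stop codon in grey. A single nucleotide with 57.9% leads replicate 1, while replicate 2 is spread over 4 runs and a few single positions, none above 17.5%.

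Outside the ATP2 reading frame, replicate 1 listed 2 positions past the stop codon, 61 and 84 nt after it, with 10.5% of the signal together. Replicate 2 also listed 2, but at 6 and 183 nt after the stop codon, with 3.09%. Both replicates therefore placed some ATP2 signal in the 3' flank, at different nucleotides. Replicate 2 alone had a run before the start codon, 4 positions 61 to 66 nt upstream with 12.4% of the signal. The gene upstream on the same strand is DMO1, which ends 130 nt before ATP2, so this run also lies 65 to 70 nt past the end of DMO1. DMO1 was listed in neither replicate, and which of the transcripts these positions belong to was not tested.

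ATP1, the gene of the alpha subunit that alternates with beta in the catalytic head (YBL099W, chromosome II, 37053 to 38690, plus strand), had 1 position in replicate 1 and 4 in replicate 2. The position of replicate 1 was an A at nucleotide 1186, in codon 396 of 545. In replicate 2 a pair at nucleotides 1420 and 1423 held 52.2% of the signal. The strongest single position of replicate 2 was a T 260 nt before the start codon, coordinate 36793, with 45.7%. It lies in no annotated gene, and the closest annotated gene upstream on that strand is a transfer RNA gene that ends 305 nt before the position. A further 2.17% lay 68 nt past the stop codon. The nearest ATP1 positions of the replicates were 234 nt apart.

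ATP3, the gene of the gamma subunit that forms the rotating stalk (YBR039W, chromosome II, 315575 to 316510, plus strand), had a single position in each replicate. It was a G at nucleotide 456 in replicate 1 and a C at nucleotide 95 in replicate 2, 361 nt apart, and each carried the whole signal. The subunits that make up the catalytic core of the same enzyme therefore had 8, 1 and 1 positions in replicate 1 and 22, 4 and 1 in replicate 2, in the order ATP2, ATP1, ATP3. Between start and stop codon, ATP1 had 0.611 and 1.22 positions per kilobase and ATP3 had 1.07 in each replicate. ATP1 and ATP3 are not separated by these values, since their order per kilobase turned between the replicates.

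PET9, the gene of the main ADP/ATP carrier (YBL030C, chromosome II, 163041 to 163997, minus strand), was the only one of the 8 with no position in replicate 1. In replicate 2 it had 7, the second highest number of the 8. Of all protein-coding genes, 25.8% were listed in replicate 2 only. Of its 7 positions, 5 formed a run 106 to 117 nt past the stop codon that held 92.6% of the PET9 signal. The strongest was a T 106 nt past the stop codon, coordinate 162935, with 33.3%. The C nucleotides 114, 116 and 117 nt past it held 18.5% each, and a T at 110 nt held 3.70%. The remaining 2 positions lay in the reading frame, at nucleotides 499 and 563, with 3.70% each. Over 50% of the signal lay past the stop codon in 7.83% of the genes listed in replicate 2, and PET9 was the only one of the 8 among them. Replicate 1 has no PET9 signal to set beside this.

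PET9 has close relatives that can share reads with it, and the treatment of reads that map to more than 1 of them is not given. AAC3, a carrier made in cells short of oxygen, had 1 and 2 positions, and AAC1 had 0 in both replicates. Reading-frame positions of PET9 are uncertain in that respect.

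MIR1, the gene of the mitochondrial phosphate carrier (YJR077C, chromosome X, 577255 to 578190, minus strand), had 1 position in each replicate. It was a G at nucleotide 40, in codon 14, in replicate 1 and a T at nucleotide 226, in codon 76, in replicate 2. Both lay in the reading frame, 186 nt apart. With 1.07 positions per kilobase in each replicate it stood level with ATP3, which has the same length of 936 nt. PIC2, another phosphate carrier, had 0 and 1 positions.

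POR1, the gene of the outer membrane porin (YNL055C, chromosome XIV, 517994 to 518845, minus strand), was the only one of the 8 with fewer positions in replicate 2. It had 3 positions in replicate 1, all in the reading frame, at nucleotides 443, 446 and 804, with 33.3% of the signal each. Replicate 2 had 2, at nucleotide 336 and at 96 nt past the stop codon, with 50% each. The reading frame thus held the whole signal in replicate 1 and 50% in replicate 2. With values this even, no nucleotide of POR1 was stronger than another within either replicate. POR2, the second porin gene, had 0 and 2 positions.

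COR1, the gene of a core subunit of complex III, which passes electrons from ubiquinol to cytochrome c (YBL045C, chromosome II, 134143 to 135516, minus strand), had 3 positions in replicate 1 and 4 in replicate 2. Every one of the 7 lay in the reading frame. Replicate 1 had single A nucleotides at 467, 647 and 1066, with 33.3% of the signal each. In replicate 2 all 4 fell in a run of 6 nt, nucleotides 1015 to 1020 in codons 339 and 340, led by an A at nucleotide 1015 with 58.1%. The replicates came closest here of all 8 genes, with nucleotide 1066 of replicate 1 lying 46 nt from nucleotide 1020 of replicate 2. Counted with each run as 1 place, COR1 had 3 and 1, so its slightly higher number in replicate 2 rests on the neighbouring nucleotides of that run.

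SDH1, the gene of the flavoprotein subunit of succinate dehydrogenase (YKL148C, chromosome XI, 169207 to 171129, minus strand), had 1 position in replicate 1 and 5 in replicate 2. Replicate 1 listed an A at nucleotide 790, in codon 264 of 640. In replicate 2, 90.0% of the signal lay before the start codon, at 4 positions 62 to 71 nt upstream. Over 50% of the signal lay upstream in 3.56% of the genes listed in replicate 2, and SDH1 was the only one of the 8 among them. The strongest SDH1 nucleotide was an A 63 nt upstream, coordinate 171192, with 50%, and its neighbour at 62 nt held 20.0%. The gene next to SDH1 on that side, AVT3, is on the other strand and 653 nt away, so no annotated neighbour overlaps these positions. The fifth position, nucleotide 1625, held 10%. SDH9, a near copy of SDH1, had 0 positions in both replicates.

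**Figure D3:**
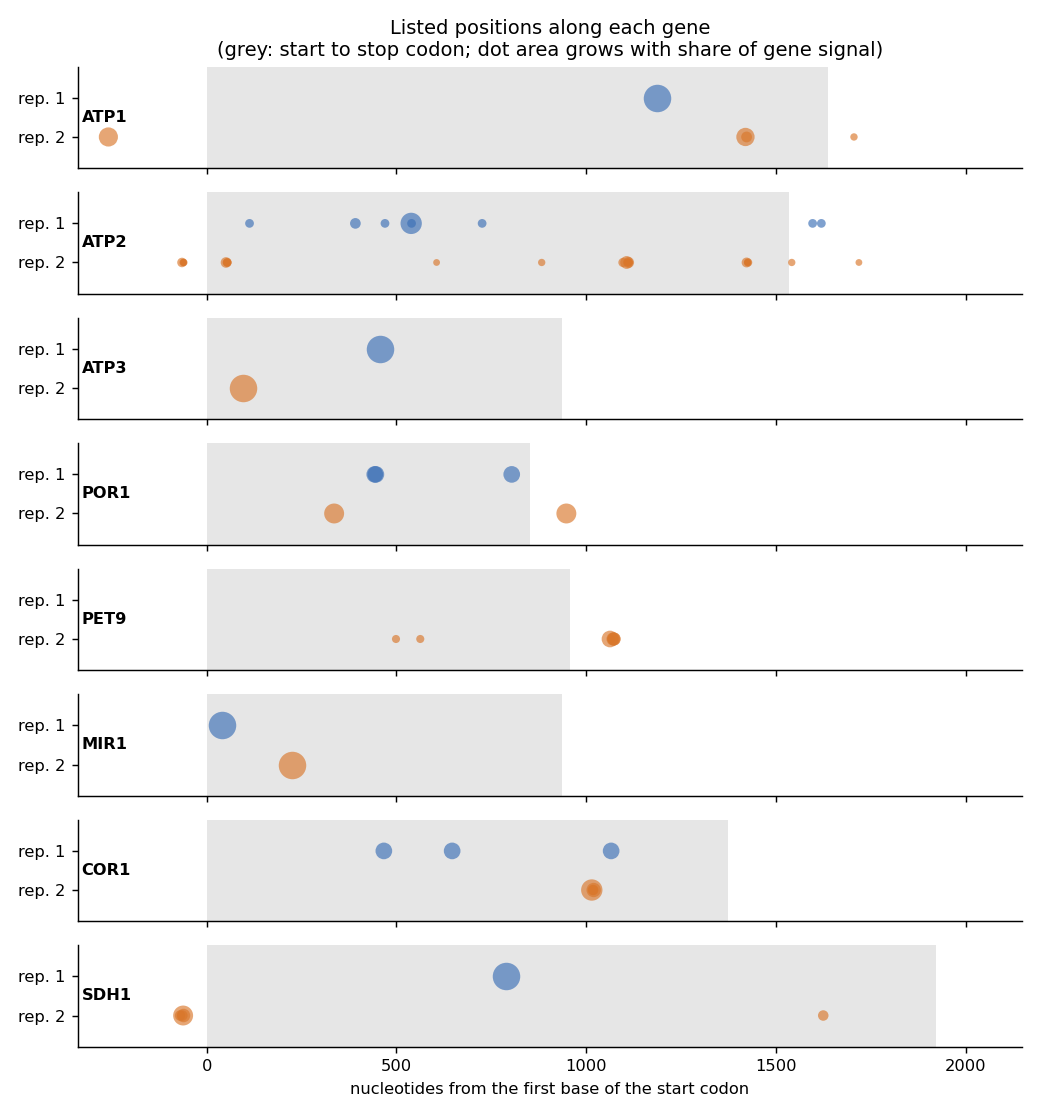
Listed positions of replicate 1 (upper row of each panel) and replicate 2 (lower row) in the 8 genes, against nucleotides from the first base of the start codon, with start to stop codon in grey and dot area growing with the share of the gene's signal. In replicate 1 only the 2 ATP2 dots lie outside the grey, while in replicate 2 SDH1 has 90.0% of its signal before the start codon and PET9 92.6% past the stop codon.

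Set apart by place, the reading frame held 16 of 18 positions in replicate 1, or 88.9% (exact Clopper-Pearson 95% interval over positions 65.3 to 98.6). In replicate 2 it held 28 of 46, or 60.9% (45.4 to 74.9). Over all protein-coding genes the reading frame held 75.3% and 84.4%. The 8 genes were thus above the general share in replicate 1 and below it in replicate 2, and the direction was not held over the replicates. These intervals cover counting of positions only, and positions in a run are not independent of each other.

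The 3' flank held 2 of 18 positions in replicate 1, 11.1% (1.38 to 34.7), and 9 of 46 in replicate 2, 19.6% (9.36 to 33.9), by the same exact intervals. All protein-coding genes had 16.7% and 10.1% of their positions there. The 2 of replicate 1 were in ATP2. Of the 9 in replicate 2, PET9 had 5, ATP2 had 2, and ATP1 and POR1 had 1 each. Counted over genes, 1 of 7 listed in replicate 1 had a position past the stop codon, where 24.6% of all listed genes did, and 4 of 8 in replicate 2, where 20.5% did. Only ATP2 had one in both replicates. Without PET9 the share in replicate 2 was 10.3% (2.87 to 24.2), near the 10.1% of all protein-coding genes, so the higher share of replicate 2 rests on that run. Without ATP2 the shares moved apart, to 0 of 10 positions in replicate 1 and 7 of 24, or 29.2% (12.6 to 51.1), in replicate 2.

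Before the start codon, replicate 1 had 0 of 18 positions, for which the exact interval reaches up to 18.5%, and replicate 2 had 9 of 46, 19.6% (9.36 to 33.9). All protein-coding genes had 7.96% and 5.53% there. The 9 positions belonged to ATP2 and SDH1, with 4 each, and ATP1, with 1. Thus 3 of 8 genes had an upstream position in replicate 2, where 11.8% of all listed genes did, and 0 of 7 in replicate 1, where 12.9% did. The upstream positions of ATP2 and SDH1 lay at almost the same distance from the start codon, 61 to 66 and 62 to 71 nt. Across all genes listed in replicate 2, 0.976% had a position 60 to 71 nt upstream. That window was drawn around these very positions, so nothing is read from the difference.

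**Figure D4:**
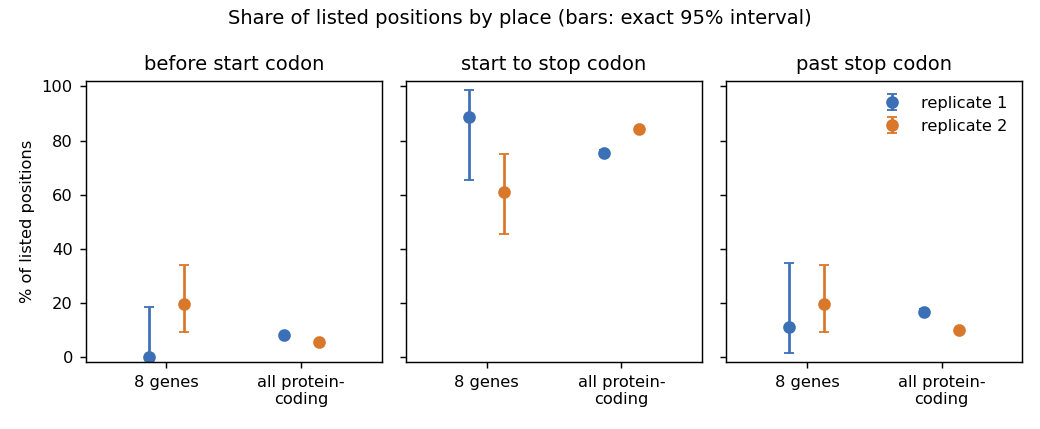
Percent of listed positions (vertical axis) before the start codon, between start and stop codon and past the stop codon, for the 8 genes and for all protein-coding genes, with a point for each replicate and exact Clopper-Pearson 95% intervals over positions as bars. For the 8 genes the reading frame share was 88.9% in replicate 1 and 60.9% in replicate 2, and for all protein-coding genes it was 75.3% and 84.4%.

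No nucleotide of the 8 genes was listed in both replicates, and none came within 5 nt of a position of the other replicate. Among the 2243 protein-coding genes listed in both, 4.77% shared a nucleotide and 11.2% had positions within 5 nt, so 0 of 7 genes is near what most genes showed. The closest approach ranged from 46 nt in COR1 to 835 nt in SDH1. Among the 8 genes, ATP2 thus had the most positions in both replicates, while no nucleotide was repeated. Listing in both replicates held for 7 of 8 genes, beside 37.4% of all protein-coding genes, and nothing is read from that difference. The number of positions was repeated only in ATP3 and MIR1, at 1 in each replicate.

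By number of positions, ATP2 was the only gene ahead of each of the others in both replicates. Among the 28 pairs of genes, 11 had the same order in both replicates, 9 had the opposite order and 8 were tied in at least 1 replicate. All 7 pairs with ATP2 were among those with the same order, so the remaining 21 pairs held only 4. By frame positions per kilobase, 18 of the 28 pairs had the same order, 11 of the 21 without ATP2, while 9 were again opposite and 1 was tied. That measure leaves out the flanks. It also divides by a frame length that is the same in both replicates, which can break ties alike in both. Nothing is therefore read from the higher number. Below ATP2, the means of COR1 (3.5 ± 0.707), PET9 (3.5 ± 4.95), SDH1 (3 ± 2.83), ATP1 (2.5 ± 2.12) and POR1 (2.5 ± 0.707; SD, n = 2 throughout) lay closer together than the spread of most of them. ATP3 and MIR1 were lowest, at 1 position in each replicate.

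Within the runs of replicate 2, the signal mostly stood highest at the nucleotide nearest the 5' end of the RNA. The 8 genes had 2 runs of 2 or more positions in replicate 1 and 8 in replicate 2, which held 4 and 31 of their positions. A run was found in 2 of 7 listed genes and 5 of 8, where 12.6% and 36.7% of all listed genes had one. In replicate 2 the 5'-most nucleotide had the largest share in 7 of 8 runs, and 72.4% of the 2459 runs in all protein-coding genes did the same. The exception was the SDH1 run, where the second nucleotide led. In replicate 1 it led in the ATP2 pair at nucleotides 539 and 540, while the POR1 pair was tied. Of the 398 runs of all protein-coding genes in replicate 1, 34.2% were led by the 5'-most nucleotide, 201 were tied, and 25 and 36 were led by an inner and by the last nucleotide. The 2 runs of replicate 1 are too few to describe a form.

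Beyond the 8 genes, the rest of the machinery was listed at shares near or under those of protein-coding genes at large. A list of 63 genes of the ATP synthase, complexes II, III and IV, cytochrome c, mitochondrial carriers and porins was used, the 8 included. Of the other 55, replicate 1 listed 20 and replicate 2 listed 35, with 15 common to both, or 36.4%, 63.6% and 27.3%, beside 45.0%, 63.2% and 37.4% of all protein-coding genes. Their median was 0 positions in replicate 1 and 1 in replicate 2, the same as over all protein-coding genes. The listed ones among these 55 had median reading frames of 898.5 and 735 nt, beside 1431 and 1422 nt over all listed protein-coding genes. The part of length in the listing shares was not tested. The 8 genes held 18 of the 52 positions of the whole list in replicate 1 and 46 of 133 in replicate 2.

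The gene named for each group is the one whose worse rank over the replicates was best, and other orders are possible. Of the 11 other ATP synthase genes 3 were listed in replicate 1 and 6 in replicate 2, and 1 was in both: ATP5, a subunit of the peripheral stalk, with 2 and 3 positions. Of the 21 other carriers 9 and 13 were listed, and by that rule YHM2, a citrate carrier with 2 and 4, stood before AGC1, an aspartate-glutamate carrier with 1 and 8, whose mean rank was better. Complex III had 5 of 8 other genes listed in each replicate, and by the worse of the 2 ranks QCR8, with 1 and 4, stood before CYT1, the gene of cytochrome c1, with 6 and 2. Complex IV had 2 and 6 of 9, led by COX4 with 2 in each. Among the 3 other genes of complex II, SDH3, a membrane anchor, had 1 in each replicate and SDH4, the other anchor, 0 and 5. CYC1, the main cytochrome c gene, was listed in replicate 2 only, with 5 positions. None of the 55 had as many positions as ATP2 in either replicate. The highest were CYT1 in replicate 1 and AGC1 in replicate 2. CYT1, AGC1 and SDH4 are named after their values were seen.

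**Figure D5:**
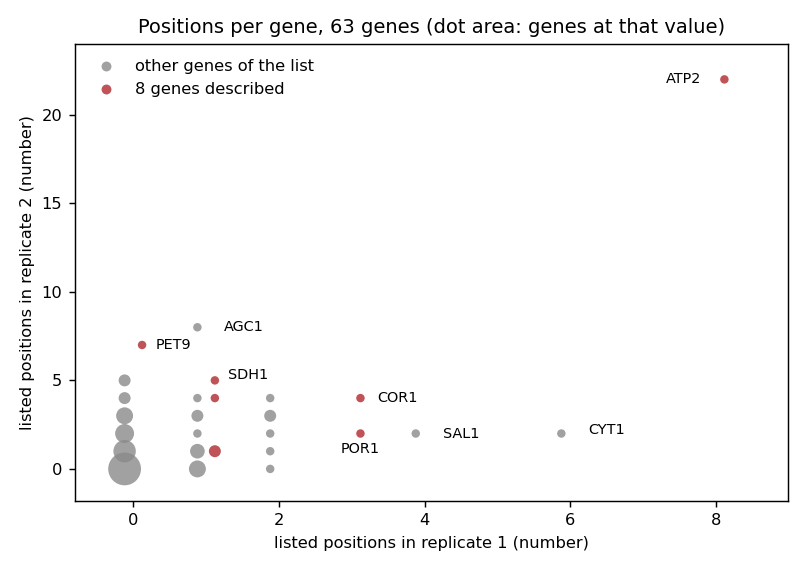
Listed positions in replicate 1 (horizontal axis) against replicate 2 (vertical axis) for the 63 genes of the list. Dot area shows the number of genes at a value. The 8 genes are in red, drawn slightly right of their whole-number value, and the other 55 in grey, slightly left of it. ATP2 lies alone at 8 and 22, and the labelled CYT1, SAL1 and AGC1 were picked after their values were seen.

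The protein-coding genes outside that list whose numbers came nearest to those of ATP2 were GLT1 (8 and 20 positions), ACO1 (8 and 25) and HSP150 (7 and 21). Their distances from ATP2 in log2(positions + 0.5) over the 2 replicates were 0.13, 0.18 and 0.19. GLT1 encodes glutamate synthase, ACO1 the mitochondrial aconitase and HSP150 a secreted cell wall protein. Past the stop codon, ATP2 had 2 positions in each replicate, GLT1 had 0 and 2, ACO1 had 1 and 1, and HSP150 had 1 and 6. With only 2 samples, likeness here means a similar number of positions in each and nothing more.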

How the data were processed

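iCLIP tables of 2 replicates were used. The authors deposited 1 value per position, which they normalized to a fraction of its gene's total and which is called normalized counts per the file headers. Tested on the tables, it lies between 0 and 1 and sums to 1 per gene within 1e-06. Per the submitters' processing notes CASAVA, TopHat and sacCer3 were used; no versions are given. Collapsing of cDNAs, multi-mapping, filters and flank rules are not given in the sources used here. Depth is unknown and no count was inferred.

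Genes were matched to RefSeq assembly R64 by systematic name, and names not found that way by gene symbol. The coordinates of that assembly fitted the listed positions: 58 of 58 bases listed in start codons were those of ATG. It gives no introns or untranslated regions. Coordinates are 1-based. Nucleotide 1 is the first of the start codon, and all 63 genes of the pathway list were matched. The totals of the tables include 145 and 210 positions under 3 names in each replicate that were not matched. Positions at most 5 nt apart form a run. Python 3.11.15, numpy 2.4.6, pandas 2.3.3, scipy 1.17.1 and matplotlib 3.10.9 were used, and the place and run calls were tested on simulated data. With 1 group and no control, no hypothesis test was made. Values are given per replicate with SD (n = 2), and intervals cover counting error only.

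The 8 genes, the pathway list and the comparisons were chosen with earlier results of these data known. The naming rule was the 8 genes, the best ranked other gene of each pathway group, the 3 genes nearest to ATP2 and neighbouring genes that a listed position overlaps. No position of the 8 genes overlapped another gene. DMO1, AVT3 and the transfer RNA gene near ATP1 were named outside that rule, as nearby genes. The close relatives, runs, upstream windows and pairs of genes were added after seeing the data. Alternatives counted runs once, left out each gene's lowest values, flanks or a replicate, moved the flank by 10 nt, and allowed 2 or 5 nt between replicates.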

Additional observations from a re-analysis of the deposited data

How the results depend on the processing

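The sum of positions over the 8 genes, 32 as a mean of the replicates, was 19.5 with runs counted once, 17.5 without each gene's lowest values, 22 in reading frames only, and 18 to 46 with a replicate left out. The ATP2 mean of 15.0 became 8, 9 and 11 under the first 3 of these. The 3.5 of COR1 became 2 with runs counted once and 1 without lowest values, and the 2.5 of POR1 became 0 without lowest values, since all its values were equal within a replicate. The 3' flank share of 15.3% ranged from 9.99%, weighted by signal, to 17.1%, with runs counted once, and from 11.1% to 19.6% with a replicate left out. It was 14.3% with the flank set 10 nt later, and no position lay in another gene of the same strand. The number of nucleotides shared by the replicates was 0 at 0, 2 and 5 nt. Of the 63 pathway genes, 22 were listed in both replicates, 48 in either, 9 with at least 2 positions in both, and 27 to 43 with a replicate left out. No paired analysis was possible because the samples form a single group. With unknown depth, a gene with 0 or 1 position, such as PET9 in replicate 1, is not shown to be unbound.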

Other observations

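Of the 55 other genes of the pathway list, 6 of 20 listed in replicate 1 and 12 of 35 in replicate 2 had a position past the stop codon, 30.0% and 34.3%, beside 24.6% and 20.5% of all listed protein-coding genes. The median reading frame of the listed genes among these 55 was 898.5 nt in replicate 1 and 735 nt in replicate 2, and 1431 and 1422 nt over all listed protein-coding genes. Those with a position past the stop codon had medians of 582 and 446 nt. The part of length in this was not tested.

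CYT1, the gene of cytochrome c1, and GGC1, a mitochondrial GTP/GDP carrier, had every position past the stop codon in both replicates. These were 2 of the 22 pathway genes listed in both, beside 1.25% of the 2243 protein-coding genes listed in both, and they were picked after their values were seen. CYT1 (YOR065W, chromosome XV, 447439 to 448368, plus strand) had 6 positions in replicate 1, at 114, 180, 299, 300, 301 and 302 nt past the stop codon, with 16.7% of the signal each. Its 2 positions in replicate 2, at 300 and 302 nt with 50% each, were the same nucleotides as in replicate 1, both T. GGC1 (YDL198C, chromosome IV, 103649 to 104551, minus strand) had 15 and 16 nt past the stop codon in replicate 1, with 50% each. In replicate 2 it had 13, 14 and 15 nt, with 33.3%, 50% and 16.7%. The T at 15 nt was shared. No annotated gene covers any of these nucleotides, and in the 8 genes described above no nucleotide was shared.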
